A study of Canis lupus familiaris with 18 samples.

Results

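The genes described here are named as genes for proteins of the mitochondrial ribosome. They are every gene on the array whose single platform symbol is MRPL or MRPS followed by a digit. Each was read on 1 probe set, the one with the highest mean over all arrays. There were 73 such genes among 15115 with a probe set carrying their symbol alone. By name, 47 belong to the large subunit (MRPL) and 26 to the small subunit (MRPS). All 73 passed the filter on low signal, which kept 10988 genes.

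Total RNA of dog right ventricle (RV) and right atrium (RA) was measured on 18 Affymetrix Canine_2 arrays. Each chamber was sampled in 3 controls, in 3 early heart failure (HF) samples and in 3 late HF samples. HF was produced by rapid pacing of the ventricles (tachypacing), a model of failure driven by heart rate, for 2 weeks in early HF and 5 weeks in late HF. The protocol text states 2 to 3 weeks and 5 to 6 weeks instead. Animals were adult mongrels or beagles, the breed and age of each sample are not given, and no treatment is listed for the controls. The labels call the replicates biological but name no animal, so p-values measure only the spread between these samples.

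The mitochondrial ribosome sits inside the mitochondrion and translates the few messenger RNAs of the mitochondrial genome, all of which encode core subunits of the respiratory chain complexes and of ATP synthase. Its RNA comes from the mitochondrial genome, while its proteins are encoded in the nucleus, made in the cytosol and imported. Heart muscle, which depends on oxidative metabolism, is rich in mitochondria.

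The values are log2 signals, so a difference of 1 is a doubling. Array medians lay between 5.65 and 5.75. The pooled standard deviation (SD) between replicate arrays had a median of 0.152 over the 73 genes and of 0.15 over all genes tested. The GAPDH 3' minus 5' difference, a sign of RNA quality, lay between 1.15 and 1.61 in RA controls, 1.29 and 1.62 in RA early HF and 1.03 and 1.51 in RA late HF. In RV it lay between 1.05 and 1.25 in controls, 1.09 and 1.42 in early HF and 1.28 and 1.47 in late HF.

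Chamber markers fitted the labels on 17 of the 18 arrays in MYL7 and PAM, 2 genes high in atrial muscle. The array labelled RA late HF 3 read 11.65 for MYL7 and 10.61 for PAM, against 13.72 or more and 12.5 or more on every other RA array. It read 14.17 for MYL2, the ventricular regulatory light chain, where the RV controls read 14.13 to 14.17. For GJA5, another atrial marker, it read 8.74, among the RA arrays and above the RV arrays, which read 7.52 or less. For the atrial marker DKK3 it read 9.17, between the RV arrays, at 8.53 or less, and the other RA arrays, at 12.05 or more. The array is kept under its label, and the RA late HF results are given with and without it. Other comparisons share its part in the estimate of the spread, so their counts are also given without it where they change. RV late HF 1 read 12.76 for MYL2, below the other RV arrays, which read 14.13 or more. In the atrium MYL2 was higher with pacing on the other arrays too. It read 6.04 to 9.38 in RA controls, 9.73 to 12.06 in RA early HF and 10.99 and 10.59 on RA late HF 1 and 2. MYL3, another ventricular marker, read 7.59 to 7.97 in RA controls, 9.04 to 10.86 in RA early HF and 9.22 and 8.81 on those 2 arrays.

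RA early HF was set against RA control to ask what the first weeks of pacing do to these genes. MRPL48 was the only one of the 73 that passed the threshold, an adjusted p under 0.05 from limma over the 25752 probe sets tested, and it fell. The other members leaned the same way without passing: 59 of 73 differences were negative and 14 positive, with a median of -0.14 against -0.02 over all genes tested. Of all probe sets, 0.812% passed in either direction and 0.505% were called lower, so 1 of 73 is a count near that background. The arrays of the 2 groups did not overlap for 25 members, all of them lower in early HF, where 10.1% of all probe sets were lower and 8.7% higher without overlap. The shares were alike for the 2 kinds of symbol, with 38 of 47 MRPL and 21 of 26 MRPS differences negative and medians of -0.12 and -0.19.

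MRPL48 is a protein of the central protuberance, the crown of the large subunit that faces the small one. It read 9.97, 9.84 and 10.08 on the RA control arrays and 9.43, 9.1 and 9.39 on the RA early HF arrays. Every early HF array lay below every control array. The log2 change was -0.66 (standard error, SE, 0.13, n = 3 against 3), 0.634 times the control signal, with an adjusted p of 0.0338. A further probe set of the gene gave -0.70 (SE 0.14, adjusted p = 0.0325). The call was lost, at adjusted p values of 0.13, 0.0915 and 0.108, without RA control 1, 2 or 3, and at 0.0926 and 0.0943 without RA early HF 2 or 3, while the change stayed between -0.72 and -0.55 with any 1 of the 18 arrays left out.

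The members next in order of p did not pass. MRPS9, a protein of the small subunit head, read 8.83, 9.03 and 8.92 in RA controls and 8.69, 8.33 and 8.38 in early HF (-0.46, SE 0.13, adjusted p = 0.106). MRPL45, which lies at the polypeptide exit and helps hold the ribosome at the inner membrane, read 9.36, 9.27 and 9.28 in controls and 8.96, 8.84 and 9.08 in early HF (-0.34, SE 0.10, adjusted p = 0.122). MRPS25, a small subunit protein, read 8.99, 8.87 and 8.8 in controls and 8.66, 8.39 and 8.59 in early HF (-0.34, SE 0.10, adjusted p = 0.123). In all 3 the early HF arrays lay below the controls without overlap.

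The positive differences in RA early HF were smaller, and none had arrays that did not overlap. MRPS31, also of the small subunit head, gave 0.25 (SE 0.16, adjusted p = 0.531). MRPL41 gave 0.15 (SE 0.12) and MRPS21 0.15 (SE 0.15), with adjusted p values of 0.662 and 0.74. MRPL17 gave 0.33 (SE 0.29, adjusted p = 0.709) and had the largest spread between replicates of the 73, a pooled SD of 0.404.

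With the array labelled RA late HF 3 left out of the fit, which changes the shared estimate of the spread but none of the RA early HF or control values, 4 members fell in RA early HF. The share of probe sets called then rose from 0.812% to 3.22%, with 1.59% lower. MRPL48 had an adjusted p of 0.00848. The others were MRPL38 (-0.38, SE 0.09, adjusted p = 0.037), MRPL2 (-0.44, SE 0.11, adjusted p = 0.0447) and MRPL46 (-0.50, SE 0.13, adjusted p = 0.048). MRPL46 and MRPL38 belong, like MRPL48, to the central protuberance.

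Early HF in the right ventricle was compared with RV control in the same way. The differences use none of the atrial arrays, but the p-values rest on a shared estimate of the spread that includes those arrays. Same-numbered RA and RV arrays deviated together in both groups, though no label names an animal. The chambers may thus not be independent samples, and the main fit has no term for pairing. No member passed, where 0.105% of all probe sets did. Even so, 66 of 73 differences were negative, with a median of -0.18 against -0.01 over all genes tested, and 17 members were lower at an unadjusted p under 0.05 by limma and 0 higher, where 4.35% and 4.13% of all probe sets were. For 22 members the early HF arrays lay below the controls without overlap, where 8.46% of all probe sets did so, and for 0 members they lay above, where 7.35% did.

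MRPL48 again had the smallest p. It read 10.21, 10.24 and 10.18 in RV controls and 9.32, 9.74 and 9.58 in RV early HF, a change of -0.66 (SE 0.13) with an adjusted p of 0.0565. The 2 groups lay apart, but the adjusted p missed the threshold; it was 0.022 without RA late HF 3, 0.0432 without RA late HF 1 and 0.0145 without RV early HF 2. It missed the threshold with each of the other 15 arrays left out, up to 0.343, and the change was -0.55 without RV early HF 1. MRPL12, the protein of the flexible stalk that recruits translation factors, read 9.55, 9.13 and 9.22 in controls and 8.44, 8.77 and 8.68 in early HF (-0.67, SE 0.16, adjusted p = 0.114). Without RA late HF 3 its adjusted p was 0.0476, so that 2 members passed, where 0.54% of all probe sets did. MRPL46 read 10.04, 9.62 and 9.68 in controls and 8.99, 9.2 and 9.4 in early HF (-0.58, SE 0.16, adjusted p = 0.16). MRPS12, a protein of the decoding centre where codon and anticodon meet, gave -0.35 (SE 0.09, adjusted p = 0.163). The arrays of these 4 members did not overlap between the groups.

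The 4 members of smallest p among the positive differences in RV early HF were MRPL33 (0.20, SE 0.22), MRPL23 (0.13, SE 0.16), MRPL20 (0.09, SE 0.13) and MRPL54 (0.04, SE 0.11). Their adjusted p values lay between 0.909 and 0.976 and each had overlapping arrays.

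**Figure D1:**
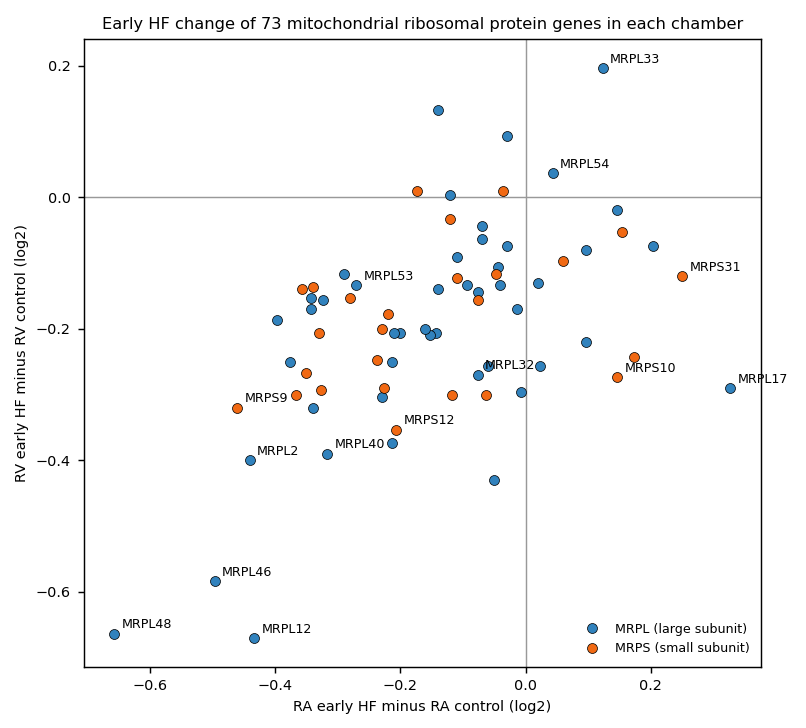
Log2 change of each of the 73 genes in early HF against control, in RA (x axis) and in RV (y axis), with MRPL genes in blue and MRPS genes in orange. Most points (54) lie in the lower left quadrant, with MRPL48, MRPL46 and MRPL12 farthest out, 17 have opposite signs and 2, MRPL33 and MRPL54, are positive in both.

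The early change was lower in both chambers for 54 members, higher in both for 2 and of opposite sign for 17. Across the 73 genes the 2 changes correlated at r = 0.505 (Spearman rho 0.462), and across all genes tested at 0.432. These are descriptions across genes, which share the same arrays and are not independent replicates, and the arrays of the chambers may be paired. The difference between the chambers in the early change was tested as an interaction. Its median over the members was 0.04, and 0 passed, where 0.00388% of all probe sets did. At an unadjusted p under 0.05 by limma there were 0 members, where 2.09% of all probe sets were higher and 3.36% lower.

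A group was made of 7 large subunit members that make up or adjoin the central protuberance: MRPL18, MRPL27, MRPL38, MRPL40, MRPL46, MRPL48 and MRPL55. It is not a full list of the proteins of that site. This group was put together after the values were seen, so its counts are a description. All 7 differences were negative in RA early HF, with a median of -0.32, and all 7 in RV early HF, with a median of -0.25. All 7 were also negative in RV late HF and in RA control against RV control. In RA late HF 5 were negative and 2 positive. The 3 genes of the stalk and its base gave -0.43 (MRPL12), 0.02 (MRPL10) and -0.04 (MRPL11) in RA early HF. In RV early HF they gave -0.67, -0.13 and -0.11.

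**Figure D2:**
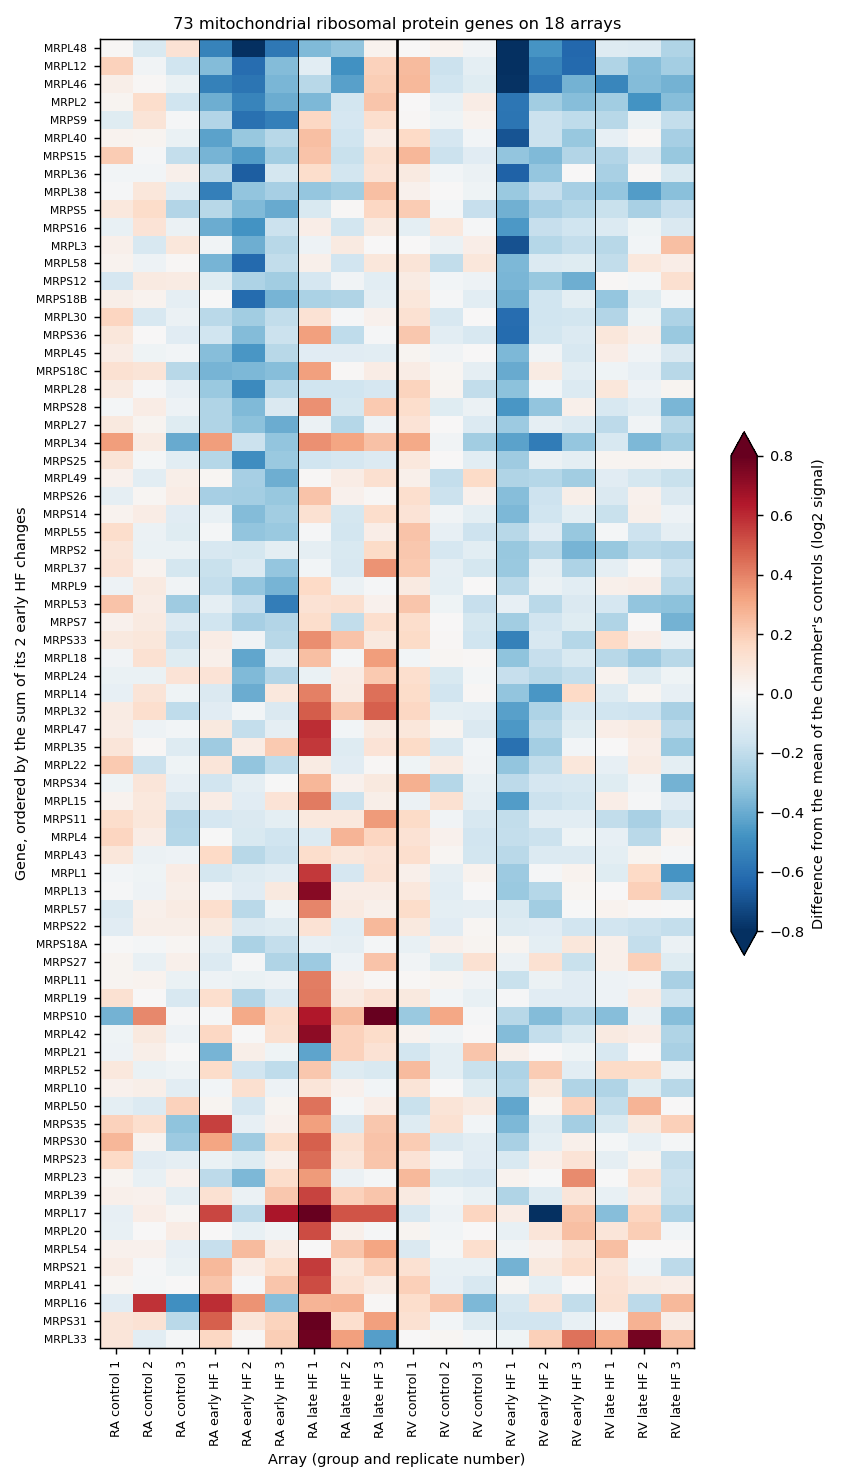
Each of the 73 genes (rows) on each of the 18 arrays (columns), as the log2 difference from the mean of the 3 control arrays of the same chamber, on a colour scale that ends at -0.8 and 0.8. Rows are ordered by the sum of the RA and RV early HF changes. Blue (lower) fills most rows of the RA early HF and RV early HF columns, least so in RA early HF 1, while red (higher) fills 58 rows of RA late HF 3 and of RV control 1 and 52 rows of RA late HF 1.

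Seen array by array, the median difference of the 73 genes from their chamber's control mean was -0.07, -0.24 and -0.17 on the RA early HF arrays. It was -0.30, -0.15 and -0.11 on the RV early HF arrays. The 6 control arrays lay between -0.05 and 0.10, so all 6 early HF arrays were below all controls. The controls are measured from a mean that they form, which holds them near 0. RV early HF 1 had 68 of 73 genes below the control mean, and RA early HF 1 had 47. Over all genes tested, no array's median lay further than 0.05 from 0. RA early HF 1 lay at -0.05 there, close to its -0.07 over the 73 genes.

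Late HF was compared with control to ask whether the early pattern lasted. In the right atrium it was absent from the median: 53 of 73 differences were positive and 20 negative, with a median of 0.09 against -0.003 over all genes tested. No member passed, where 0.0699% of all probe sets did, and 7 were higher and 0 lower at an unadjusted p under 0.05 by limma, where 6.78% and 4.94% of all probe sets were. Arrays did not overlap for 8 members that were higher, where 6.16% of all probe sets did so, and for 3 that were lower, where 6.22% did. With the 2 RA late HF arrays other than RA late HF 3 these counts were 12 and 9, where 15.8% and 16.4% of all probe sets did so. The median was 0.03 without RA late HF 1 and 0.08 without RA late HF 3. In the latter fit 0 members passed, where 1.65% of all probe sets did. At an unadjusted p under 0.05 by limma, 10 members were higher and 3 lower, where 1256 and 700 of the 10988 genes tested were.

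The members of smallest p in RA late HF were all higher. MRPL32, which the m-AAA protease must trim before it enters the large subunit, read 7.37, 7.44 and 7.1 in controls and 7.79, 7.52 and 7.78 in late HF (0.39, SE 0.12, adjusted p = 0.234). MRPS10, of the small subunit head, read 5.78, 6.54 and 6.15 in controls and 6.8, 6.41 and 7.05 in late HF (0.60, SE 0.19, adjusted p = 0.257). The MRPL32 arrays did not overlap and the MRPS10 arrays did. The changes were 0.35 and 0.45 without RA late HF 3. MRPS31 gave 0.42 (SE 0.16, adjusted p = 0.323) and MRPL39 gave 0.32 (SE 0.12, adjusted p = 0.34), or 0.47 and 0.36 without that array.

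The members of smallest p below control in RA late HF were MRPL48 (-0.21, SE 0.13), MRPS18B (-0.19, SE 0.14), MRPS25 (-0.13, SE 0.10) and MRPL28 (-0.15, SE 0.12), with adjusted p values of 0.551 to 0.647. Without RA late HF 3, which read 9.99 for MRPL48 against 9.61 and 9.65 on the others, these changes were -0.33, -0.25, -0.15 and -0.16.

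In the right ventricle, late HF kept a negative median, -0.08 against -0.01 over all genes tested, with 57 differences negative and 15 positive. With 1 of the 18 arrays left out the median ran from -0.11 to -0.025, the latter without RV control 1. No member passed, and no probe set of the series did (0%); at an unadjusted p under 0.05, 4 members were lower and 0 higher by limma, where 4.95% and 4.26% of all probe sets were. Arrays did not overlap for 11 members that were lower, where 10.8% of all probe sets were lower in this way, and for 1 that was higher, MRPL33, where 9.04% were. The smallest p values among those below control belonged to MRPL38 (-0.36, SE 0.13), MRPL2 (-0.37, SE 0.14), MRPL46 (-0.42, SE 0.16) and MRPS2 (-0.25, SE 0.11), with adjusted p values of 0.437 to 0.511. MRPL33, a small protein of the large subunit, read 9.4, 9.41 and 9.38 in RV controls and 9.7, 10.16 and 9.64 in RV late HF (0.44, SE 0.22, adjusted p = 0.571). MRPL20, MRPL54 and MRPS31 followed among the positive differences, at 0.09, 0.08 and 0.11, each with overlapping arrays.

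**Figure D3:**
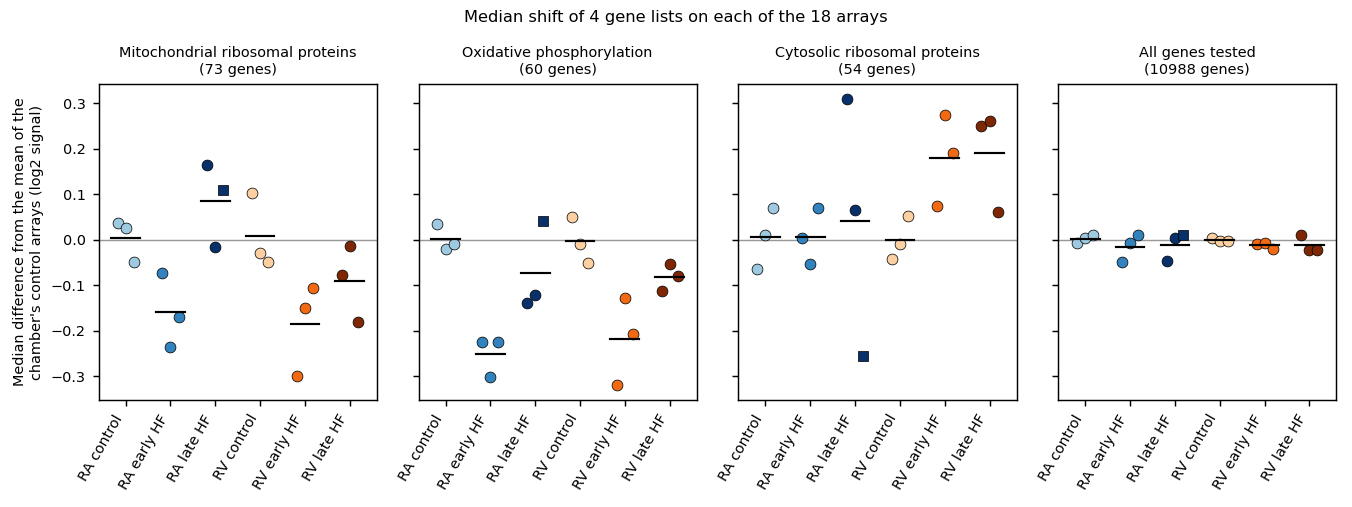
Median log2 difference from the mean of the chamber's 3 controls on each array, for 4 gene lists. Points are arrays in replicate order, bars are group means, and the square is the array labelled RA late HF 3. The mitochondrial ribosomal proteins and the oxidative phosphorylation genes lie below 0 on all 6 early HF arrays, the cytosolic ribosomal proteins lie above 0 on all 6 RV HF arrays, and all genes tested stay near 0.

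Late HF was then set directly against early HF. In the right atrium 71 of 73 members were higher in late HF, with a median of 0.25 against 0.01 over all genes tested. No member passed, as no probe set of the series did (0%), while 27 members were higher and 0 lower at an unadjusted p under 0.05, where 5.86% of all probe sets were higher and 2.17% lower by limma. Arrays did not overlap for 23 members, all higher in late HF, where 5.32% of all probe sets were higher and 2.4% lower without overlap. The count without RA late HF 3 was 26 higher and 0 lower, where 9.7% and 6.67% of all probe sets were. The median was 0.24 without RA late HF 3, with 71 of 73 positive and 0 past the threshold.

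MRPL32 had the smallest p of these differences, 0.47 (SE 0.12, adjusted p = 0.357). MRPS9 had the largest value, 0.51 (SE 0.13, adjusted p = 0.372), with late HF arrays at 9.09, 8.79 and 9.06, and MRPL48 gave 0.44 (SE 0.13, adjusted p = 0.438). These 3 were 0.43, 0.47 and 0.32 without RA late HF 3, with adjusted p values of 0.488, 0.488 and 0.55. In the right ventricle 58 members were higher and 14 lower in late HF than in early HF, with a median of 0.11 against 0 over all genes tested. None passed, as no probe set of the series did (0%), with 5 higher and 0 lower at an unadjusted p under 0.05 by limma, where 2.38% and 3.18% of all probe sets were. MRPL48 gave 0.51 (SE 0.13, adjusted p = 0.483). The comparisons with control and between stages share their early HF arrays.

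The chamber difference in the late change was tested as an interaction. It was positive for 64 of 73 members with a median of 0.17 against 0.02 over all genes tested, and 0 passed, where 0.00777% of all probe sets did, with 5 members higher and 0 lower at an unadjusted p under 0.05 by limma, where 4.25% and 3.62% of all probe sets were. It was positive for 62 members without RA late HF 3, with a median of 0.17.

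The chambers were compared without pacing, RA control against RV control. MRPL32 and MRPS10 were lower in the atrium and were the 2 of 73 members that passed, where 2.9% of all probe sets passed in either direction and 1.21% were lower. The members' share is thus close to the background in either direction. In all, 63 differences were negative and 10 positive, with a median of -0.19 against -0.02 over all genes tested. For 29 members every RA control array lay below every RV control array, where 13.6% of all probe sets did so, and for 2, MRPL33 and MRPS18A, above, where 13% did. Control arrays of the same number correlated across the chambers, as given with the processing. With this pairing as a block the same 2 members passed, where 3.74% of all probe sets did. Without RA late HF 1, 4 members passed, where 4.43% of all probe sets did.

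MRPL32 read 8.2, 7.96 and 7.95 in RV controls against 7.37, 7.44 and 7.1 in RA controls. The 2 groups were well apart, with a difference of -0.73 (SE 0.12, adjusted p = 0.00275), 0.602 times the RV signal. Its adjusted p stayed between 0.000976 and 0.0211 with any 1 of the 18 arrays left out. The gene's other probe set gave -0.52 (SE 0.17, adjusted p = 0.127).

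MRPS10 read 6.67, 7.28 and 6.96 in RV controls against 5.78, 6.54 and 6.15 in RA controls. Its highest RA value lay just below its lowest RV value, and the difference was -0.81 (SE 0.19, adjusted p = 0.0293), 0.569 times the RV signal. The call was lost without RA control 1 or 3 or RV control 2 or 3, at adjusted p values of 0.129, 0.104, 0.166 and 0.0745. The mean of its 3 probe sets gave -0.54 with an adjusted p of 0.0538. Probe sets other than the one read passed in limma for MRPL19 (-0.55, adjusted p = 0.0282) and MRPL49 (-0.53, adjusted p = 0.0423). The probe sets read for these genes gave -0.32 (adjusted p = 0.174) and -0.24 (adjusted p = 0.318). On the mean of its probe sets MRPL49 passed as well (-0.385, adjusted p = 0.0395).

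MRPL39 (-0.42, SE 0.12, adjusted p = 0.0763) and MRPS31 (-0.47, SE 0.16, adjusted p = 0.125) came next. The 4 positive differences of smallest p were MRPS12 (0.15, SE 0.09), MRPS18A (0.13, SE 0.09), MRPS25 (0.13, SE 0.10) and MRPL33 (0.26, SE 0.22), with adjusted p values of 0.463 to 0.631. MRPS18A is, despite its name, a protein of the large subunit. Its relatives MRPS18B and MRPS18C sit in the small subunit and gave 0.15 (SE 0.14) and -0.23 (SE 0.13).

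**Figure D4:**
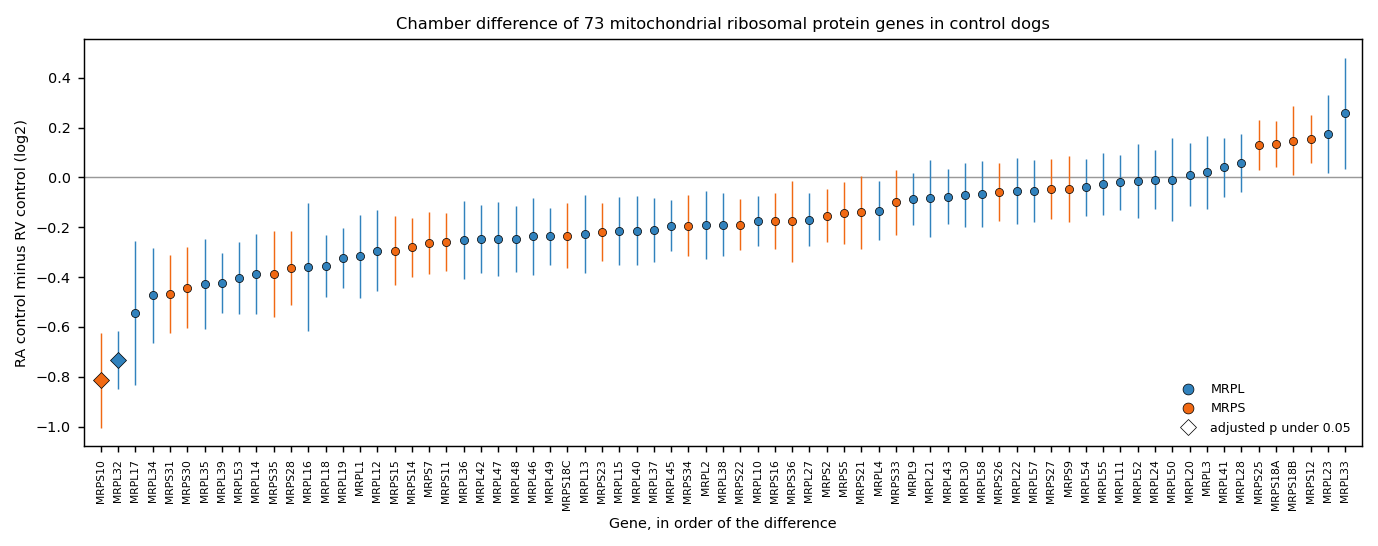
RA control minus RV control for each of the 73 genes in order of the difference, with the SE of the limma fit as bars. Diamonds mark MRPS10 and MRPL32, the 2 that passed an adjusted p of 0.05, at -0.81 and -0.73, and 63 of the 73 points lie below 0.

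In early HF the RA lay below the RV for 56 of 73 members, with a median of -0.12 against -0.03 over all genes tested. MRPL32, MRPL53 and MRPL45 passed, all lower in RA, where 5.65% of all probe sets passed in either direction and 2.64% were lower. The members' share thus lay between these 2 background shares. MRPL32 read 7.21, 7.28 and 7.19 in RA and 7.6, 7.79 and 7.91 in RV (-0.54, SE 0.12, adjusted p = 0.0146); the call was lost without RA early HF 3 (0.0542) or RV early HF 3 (0.0828). It was also lost on the gene's other probe set (-0.33, adjusted p = 0.326) and on the mean of its probe sets (-0.44, adjusted p = 0.0637). MRPL53, a small protein of the large subunit, read 7.92, 7.81 and 7.44 in RA and 8.33, 8.18 and 8.28 in RV (-0.54, SE 0.15, adjusted p = 0.0391). MRPL45 read 8.96, 8.84 and 9.08 in RA and 9.14, 9.47 and 9.37 in RV (-0.37, SE 0.10, adjusted p = 0.0452). Groups did not overlap for any of the 3.

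The calls of MRPL53 and MRPL45 were close to the threshold. With 1 of the 18 arrays left out, MRPL53 was lost in 9 fits and MRPL45 in 15, with adjusted p values of up to 0.167 and 0.172. With same-numbered RA and RV arrays as a block MRPL45 did not pass (adjusted p = 0.0921), while MRPL32 (0.0205) and MRPL53 (0.021) did. Without RA late HF 3, MRPL38 (-0.32, SE 0.09, adjusted p = 0.0423) and MRPS18C (-0.45, SE 0.13, adjusted p = 0.0425) passed as well, 5 members in all, where 8.99% of all probe sets did.

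**Figure D5:**
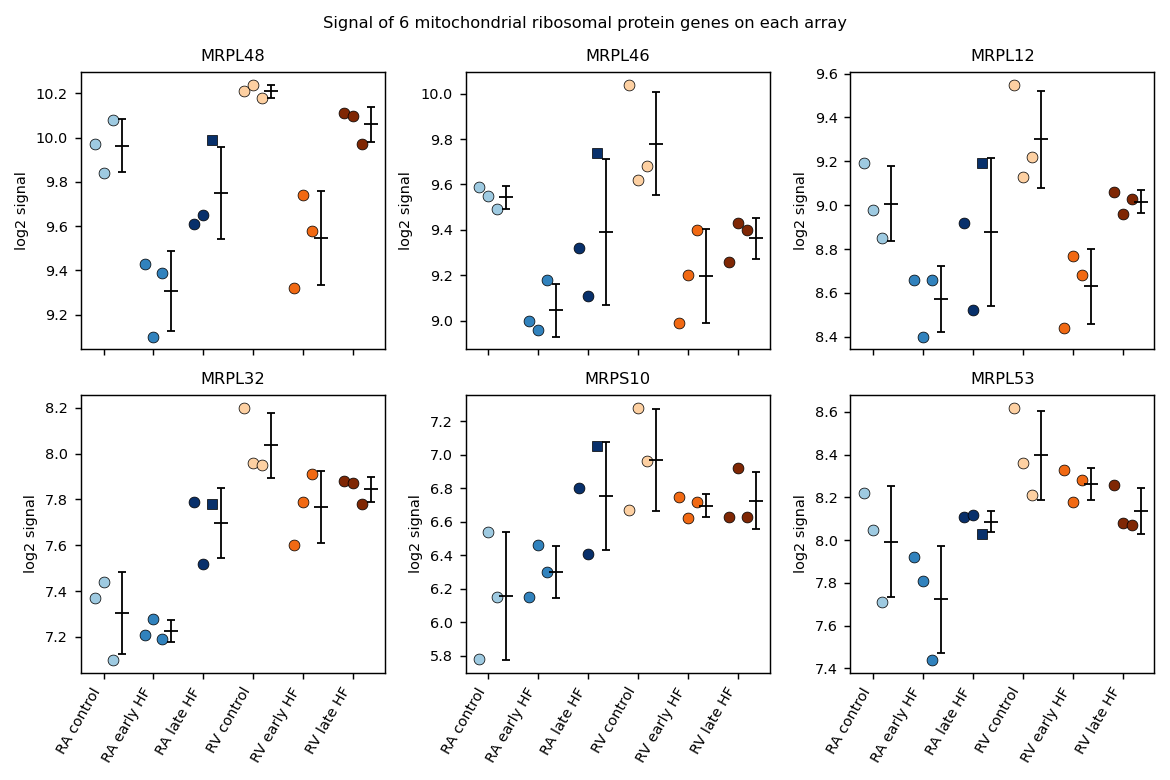
Log2 signal of 6 genes on each array by group, points in replicate order, with the group mean and SD beside them; the square is the array labelled RA late HF 3. MRPL48, MRPL46 and MRPL12 have lower group means in early HF than in control or late HF in both chambers, and MRPL32, MRPS10 and MRPL53 lie lower in RA control and RA early HF than in the RV groups, with overlap for MRPL53 in controls.

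In late HF the signs were mixed: 40 members were higher and 33 lower in RA, with a median of 0.02 against 0.003 over all genes tested. No member passed, where 0.0272% of all probe sets did, with 1 higher and 2 lower at an unadjusted p under 0.05 by limma, where 5.95% and 5.89% of all probe sets were. With RA late HF 3 left out, 34 were higher and 37 lower with a median of -0.01, and 0 passed where 3.15% of all probe sets did.

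Genes that work with the mitochondrial ribosome were read from fixed lists, which were written with earlier results of these data known. In RA early HF the 16 genes listed as mitochondrial translation factors had a median of -0.15, with 12 negative and 0 called. The list is wider than its name and also holds SLIRP, CLPX and CLPP. SLIRP, an RNA-binding protein that stabilises mitochondrial messenger RNAs, gave -0.44 and the elongation factors TSFM and TUFM gave -0.30 and -0.45, with adjusted p values of 0.0655, 0.216 and 0.253. SLIRP passed without RA late HF 3 (adjusted p = 0.0346). In RV early HF the median of this list was -0.29, with 15 of 16 negative and 0 called. The 18 genes of ribosome assembly had medians of -0.13 and -0.09 in RA and RV early HF, the 14 mitochondrial aminoacyl-tRNA synthetases -0.12 and -0.07, the 22 genes of mitochondrial gene expression -0.10 and -0.12 and the 5 mitoribosomal proteins with other symbols, such as DAP3, -0.05 and -0.16. None of these 4 lists had a gene called in either comparison, with or without RA late HF 3.

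The subunits of oxidative phosphorylation, the complexes that receive the products of mitochondrial translation, were all represented by nuclear-encoded genes here. In RA early HF 55 of 60 were negative with a median of -0.25, and 3 subunits of complex I fell: NDUFS8 (-0.61, adjusted p = 0.0326), NDUFS7 (-0.72, adjusted p = 0.0346) and NDUFA13 (-0.41, adjusted p = 0.0348), where 0.812% of all probe sets passed. Without RA late HF 3, 11 of the 60 were lower, among them UQCRC1 of complex III and SDHB of complex II, where 3.22% of all probe sets passed. In RV early HF 56 of 60 were negative with a median of -0.23 and 0 called, or 1, SDHB, without that array. The cytosolic ribosomal proteins, which are parts of the ribosome that translates nuclear messages, had a median of 0.002 in RA early HF, with 27 of 54 negative, and 0.18 in RV early HF. In RA control against RV control the 54 had a median of 0.27 with 50 positive and 0 called. With RA late HF 3 left out, 9 were higher and 1, RPL3L, lower there, where 5.66% of all probe sets passed. In the same comparison MTRF1 (-0.61, adjusted p = 0.034), CLPX (-0.69, 0.0234), CLPP (-0.78, 0.0454) and PNPT1 (-0.53, 0.0298) of the mitochondrial lists were lower in RA, and 4 oxidative phosphorylation genes, against 0 with all arrays, were lower without RA late HF 3.

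Markers of other cell types also moved with the groups. Of 14 fibroblast markers, 13 passed the signal filter, and the log2 of their summed signal lay at 14.25 to 14.34 in RA controls, 14.74 to 15.49 in RA early HF and 13.71 to 15.24 in RA late HF. In RV it lay at 13.4 to 13.47 in controls, 13.85 to 13.97 in early HF and 14.13 to 14.34 in late HF. Of 16 macrophage and myeloid markers, 13 passed, with sums of 11.61 to 11.77, 12.39 to 13.25 and 11.66 to 13.2 in the RA groups and 11.55 to 11.66, 11.57 to 12.04 and 12.2 to 12.23 in the RV groups. The 11 cardiac myocyte markers on the array summed to 16.61 to 16.69, 16.34 to 16.54 and 16.21 to 16.75 in RA and to 16.71 to 16.76, 16.65 to 16.7 and 16.59 to 16.73 in RV. The 12 endothelial markers summed to 11.48 to 11.68 in RA controls and 11.84 to 12.17 in RA early HF, and to 11.53 to 11.84 and 11.64 to 11.69 in RV controls and early HF. By these sums RA early HF was above its controls in fibroblast, macrophage and endothelial markers and below them in myocyte markers. RV early HF was above its controls in fibroblast markers and narrowly below them in myocyte markers. RA controls were above RV controls in fibroblast markers and below them in myocyte markers. Single myocyte markers did not all follow the sums. In RA against RV controls TNNI3 was lower (13.42 to 13.46 against 13.54 to 13.66) and ACTC1 higher (13.85 to 13.93 against 13.64 to 13.74). In RV early HF against control TNNT2 was lower (13.37 to 13.59 against 13.66 to 13.75) and TNNI3 overlapped (13.56 to 13.76 in early HF). The part of these markers in the differences of the mitochondrial ribosomal proteins was not tested. In bulk tissue fewer cells of a type and less RNA per cell cannot be told apart.

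For 58 of the 73 genes the array holds more than 1 probe set, and 53 had at least 2 that passed the filter. Of these 53, all probe sets agreed in sign for 42 in RA early HF, 47 in RV early HF and 43 in RA control against RV control. The brightest probe sets had a median of -0.21 in RA early HF, and the medians of the genes' other probe sets had one of -0.14. In RV early HF both were -0.20. The 3 members nearest the filter limit of 5.31, MRPL54, MRPS27 and MRPL4, had mean signals under 6.31 and differences between -0.13 and 0.04 in both early comparisons. Those with the highest signal, MRPL36, MRPL40 and MRPS16, gave -0.34, -0.32 and -0.35 in RA early HF and -0.32, -0.39 and -0.27 in RV early HF, none past the threshold.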

How the data were processed

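Total RNA was hybridised to 18 Affymetrix Canine_2 arrays. The authors deposited log2 signals per probe set; MAS5 is named by the submitters' processing notes, with no version, and other steps are not given in the sources used here. The log2 scale was read from the values: the spiked controls CreX and BioD lay 1.57 to 1.86 apart. No further normalization was applied. Gene symbols came from the platform annotation, 1 probe set that names MRPS22 together with another gene was left out, and 67 of the 73 genes matched the RefSeq table by gene ID. The array and that table rest on different dog genome builds, so no coordinates are given.

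Control probe sets and the 40% with the lowest mean signal (limit 5.31) were left out, which left 25752. They were tested with limma 3.58.1 in R 4.3.3, as 6 group means over all 18 arrays (12 residual degrees of freedom), with a trended variance prior, two-sided, and Benjamini-Hochberg adjustment over all probe sets. Lists are described by counts and medians, with no set test. On simulated data for RA early HF 2% of the genes changed 1.25-fold were recovered, 48% at 1.5-fold, 84% at 2-fold and 96% at 4-fold, and 4 of 119 calls were false. The number of arrays limits the precision.

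Members, lists and the naming rule were chosen with earlier results of these data known. The rule names every member past the threshold, the 4 of smallest p in each direction in 5 comparisons, and the 3 of highest and lowest mean signal, 30 genes in all; other members are named as examples, and the central protuberance and stalk groups were chosen after their values were seen. Same-numbered RA and RV arrays deviated together in controls (r = 0.36, 0.24 and 0.42) and early HF (0.17, 0.26 and 0.15). In late HF the values were 0.05, -0.42 and 0.15. The main fit has no term for pairing. In an alternative fit of the comparisons between chambers, same-numbered RA and RV arrays were blocked as pairs, late HF included. Within chambers RA early HF 1 and RA late HF 1 correlated at 0.36, and RV early HF 2 and RV late HF 2 at -0.33. Values of this size thus also occurred outside the pairs. As the labels name no animal, the pairing is an assumption. The plots used matplotlib 3.10.9 and numpy 2.4.6 under Python 3.11.15.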

Additional observations from a re-analysis of the deposited data

Results flagged for a closer look

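Among the 30 genes named by the rule, there were 5 cases in which all 3 HF arrays of one chamber lay above the control mean and all 3 of the other chamber below it. The interaction test of these differences did not pass in any of them. MRPL32 in late HF lay 0.22 to 0.49 above the RA control mean and shifted by -0.26 to -0.16 in RV, a difference of 0.587 on the log2 scale (limma interaction, adjusted p = 0.524). MRPS10 in late HF lay 0.25 to 0.89 above in RA and shifted by -0.34 to -0.05 in RV, a difference of 0.84 (adjusted p = 0.573). MRPL53 in late HF gave a difference of 0.353 (adjusted p = 0.696). MRPS25 in late HF gave -0.153 (adjusted p = 0.816), with the RA arrays below and the RV arrays above their controls. MRPS31 in early HF gave 0.37 (adjusted p = 0.997). Each late HF case includes the array labelled RA late HF 3, whose MYL7, PAM and MYL2 read like the RV arrays while its GJA5 did not. Without that array the differences of MRPL32, MRPS10, MRPL53 and MRPS25 were 0.55, 0.69, 0.38 and -0.17. Over all 73 genes, these included, this pattern of signs appeared in 1 in early HF, and in late HF in 10 with RA above and RV below and in 1 the other way. The pattern was not counted over all genes tested, so these counts have no background beside them and are a description only.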

How the results depend on the processing

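Each of 29 results was recomputed under 11 alternatives, and with each of the 18 arrays left out; no value changed sign among those past the threshold. The medians moved by less than the spread between replicate arrays (pooled SD 0.0835), except with array weights. Those gave medians of -0.0104 in RA late HF against control, 0.149 in RA late against early HF, -0.0914 in RA against RV late HF and 0.0345 in the late interaction. They also gave 8 members past the threshold in RA early HF (of all probe sets, 4.97% passed), 4 in RA late HF (10%), 3 in RV early HF (1.49%), 18 in RA late against early HF (9.63%), and 5 (10.1%), 8 (10.3%) and 12 (18.8%) in RA against RV in control, early and late HF. The weight estimate stopped before it converged and gave RA late HF 2 a weight of 18, where the other arrays had 0.253 to 1.76.

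The count of members past the threshold in RA early HF was 2 with quantile normalization (1.63% of all probe sets). In RV early HF it was 1 with a stricter signal filter (0.384%) and 1 with an untrended variance prior (0.159%). In RA against RV control it was 5 with quantile normalization (4.15%), 7 with only the arrays compared (8.4%) and 1 of 58 over probe sets without the suffixes _x_at or _s_at (2.9%). In RA against RV early HF it was 1 with arrays centred on their median (4.76%), 1 with only the arrays compared (5.74%), 1 of 58 without those suffixes (5.65%) and 6 with the untrended prior (5.74%). With 1 array left out the counts were 0 to 4 in RA early HF, 0 to 2 in RV early HF, 1 to 4 in RA against RV control and 0 to 5 in RA against RV early HF. In the same order, 20 to 886, 0 to 306, 251 to 1458 and 391 to 2316 of the 25752 probe sets passed in those fits. The cause of these moves was not tested.

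A block on the replicate number within chambers was also fitted, though no label pairs those arrays. With it 1 member passed in RA early HF (0.571% of all probe sets). In RV early HF (0.124%), RA late HF (0.0777%) and RV late HF (0%) 0 passed. With the block across chambers 2 members passed in RA against RV control (3.74% of all probe sets) and 2 in early HF (7.24%). The simulated data show that changes of 1.25-fold were mostly missed at this number of arrays.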
